A study of Mus musculus with 6 samples.

Results

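The angiogenic growth factors described here are 10 genes: the vascular endothelial growth factors Vegfa, Vegfb and Vegfc, placental growth factor (Pgf), the VEGF receptor gene Flt1, adrenomedullin (Adm), angiopoietin-like 4 (Angptl4), the platelet-derived growth factors Pdgfa and Pdgfb, and endothelin 1 (Edn1). They were taken by gene symbol from a table of 54532 genes, and all 10 were found in it. The table holds 6 libraries of mouse RNA, labelled as macrophages derived from bone marrow (BMDMs), after in vitro co-culture with ID8, an ovarian cancer line derived from mouse ovarian surface epithelium. Before co-culture the ID8 cells were exposed to 40 µM cisplatin, a DNA-crosslinking drug, for 3 of the libraries and to phosphate-buffered saline (PBS) for the other 3. BMDMs were present in every co-culture, and they came from C57BL/6 mice. The study's methods say that monocytes were collected after co-culture; whether the 2 cell types were in contact, and how ID8 cells were removed, is not given in the sources used here. The study's methods speak of biological replicates, but neither they nor the labels say whether the libraries came from separate cultures or animals, so p-values measure the spread between these libraries, which may be technical.

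VEGF-A, VEGF-B and placental growth factor bind the receptor VEGFR1, encoded by Flt1, and VEGF-A also binds VEGFR2, encoded by Kdr, which drives the growth of blood vessels. VEGF-C acts through VEGFR3, encoded by Flt4, on lymphatic vessels. Platelet-derived growth factors recruit the cells that surround vessels, adrenomedullin and endothelin 1 widen and narrow vessels, and angiopoietin-like 4 inhibits lipoprotein lipase and affects vessel leakiness. Macrophages in tumours are a known source of VEGF-A, and low oxygen raises Vegfa, Adm, Angptl4, Edn1 and Flt1 in many cell types through the hypoxia-inducible factors (HIFs).

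Promoters from RefSeq (GRCm38.p6) are shown first. They are those of Vegfa and Flt1, the largest falls with a window there, and of Adm and Vegfb, the smallest differences among tested members. Each is the 250 bases before a transcription start, 5′ to 3′ on the strand of the gene. Capitals mark the hypoxia response element core (ACGTG or GCGTG) and the SP1 motif (GGGCGG), read on both strands.
Vegfa, chr17:46032378-46032627 (- strand): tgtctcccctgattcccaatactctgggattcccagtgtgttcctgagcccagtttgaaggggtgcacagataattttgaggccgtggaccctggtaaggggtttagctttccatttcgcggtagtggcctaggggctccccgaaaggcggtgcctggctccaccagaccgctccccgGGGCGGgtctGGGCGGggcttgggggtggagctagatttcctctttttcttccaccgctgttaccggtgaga
Flt1, chr5:147726012-147726261 (- strand): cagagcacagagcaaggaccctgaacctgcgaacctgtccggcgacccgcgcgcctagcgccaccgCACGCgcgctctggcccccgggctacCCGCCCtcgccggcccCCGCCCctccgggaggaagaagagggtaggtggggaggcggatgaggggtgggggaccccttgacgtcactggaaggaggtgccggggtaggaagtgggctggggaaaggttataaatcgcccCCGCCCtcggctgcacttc
Adm, chr7:110627407-110627656 (+ strand): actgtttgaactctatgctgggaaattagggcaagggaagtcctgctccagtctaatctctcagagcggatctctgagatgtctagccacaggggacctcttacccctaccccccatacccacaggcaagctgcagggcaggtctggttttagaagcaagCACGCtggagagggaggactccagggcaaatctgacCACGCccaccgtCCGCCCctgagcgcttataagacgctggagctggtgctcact
Vegfb, chr19:6987652-6987901 (- strand): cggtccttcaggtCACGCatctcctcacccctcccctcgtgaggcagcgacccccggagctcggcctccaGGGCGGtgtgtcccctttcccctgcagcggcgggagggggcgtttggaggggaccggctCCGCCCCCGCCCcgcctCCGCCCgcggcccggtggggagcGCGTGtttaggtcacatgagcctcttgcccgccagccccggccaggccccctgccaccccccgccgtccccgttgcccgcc

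RefSeq gives Vegfa 2 windows. The one shown, upstream of the gene, holds 2 SP1 motifs and no hypoxia core. The other, at chr17:46025164-46025413 inside the gene and not shown, holds an ACGTG at 211 and a GCGTG at 218 bases before its start. In Flt1 a hypoxia core lies 184 bases before the start, and SP1 motifs lie at 158, 142 and 19 bases. Adm has hypoxia cores at 90 and 54 bases and Vegfb at 237 and 81 bases, so matches were found in both kinds of gene. RefSeq windows were found for 8 of the 10 members, 11 windows in all, and not for Angptl4 and Pdgfb. A hypoxia core was found in 6 of the 11 windows, against 38.6% of all 32851 windows of the same length. These belonged to Adm, Flt1, Pdgfa, Pgf, Vegfa and Vegfb, and the windows of Edn1 and Vegfc held none. GGGCGG was found in 9 of the 11, against 32.7% of all. Neither TGANTCA (AP-1) nor TTCNNNGAA (STAT) was found in any of the 11, against 6.75% and 7.02% of all. These counts describe letters in short windows, and the motifs do not overlap one another in the 4 promoters shown.

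Expression is given as FPKM, in which reads are divided by gene length and by the size of the library, so levels of different genes can be compared per length. Reads recovered from the FPKM summed to between 15776238 and 17924686 per library. The test was limma on log2(FPKM + 1), over genes that reached 1 FPKM in 3 or more libraries. Calls needed both a 2-fold change on that scale (a log2 fold change of 1 or more in size) and an adjusted p (Benjamini-Hochberg) below 0.05. Means are given ± SD (n = 3 per group). Of 13441 genes tested, 1514 were called lower with cisplatin (11.3%) and 628 higher (4.67%). Log2 fold changes are cisplatin against PBS and understate the change of low genes.

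Nearly all of the angiogenic genes were lower in RNA from co-cultures with cisplatin-pretreated ID8 cells. ID8 and mesothelial markers were lower in the same libraries (median log2 fold change -2.19) and macrophage markers higher (median 0.92, or -0.055 after scaling by the Y-linked genes, which lowers log2 fold changes throughout, with a median of -0.83 over all tested genes), and their part in the lower angiogenic genes was not tested. Of the 10 members, 9 were tested and 5 fell past both thresholds (Vegfa, Pdgfb, Flt1, Angptl4 and Edn1), where 11.3% of all tested genes did. The members, and the lists below, were chosen with earlier results of these data known. Shares over all tested genes therefore describe these sets and do not test them. Vegfb, Vegfc, Pdgfa and Adm were lower at an adjusted p under 0.05 but short of the fold change, and all 9 were lower by the adjusted p alone, as were 35.1% of all tested genes. Pgf was too low to be tested, and no member was higher by limma, at an unadjusted p under 0.05 (0 of 9, against 34.3% of all tested genes higher and 36.4% lower) or by voom (0 of 9, against 9.13%). The median log2 fold change of the 9 was -1.29, beside -0.0011 for all tested genes. Every PBS library lay above every cisplatin library in these 9 genes, a separation in that direction that 37.2% of all tested genes showed. In bulk RNA, fewer cells of a type and less RNA per cell cannot be told apart.

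**Figure D1:**
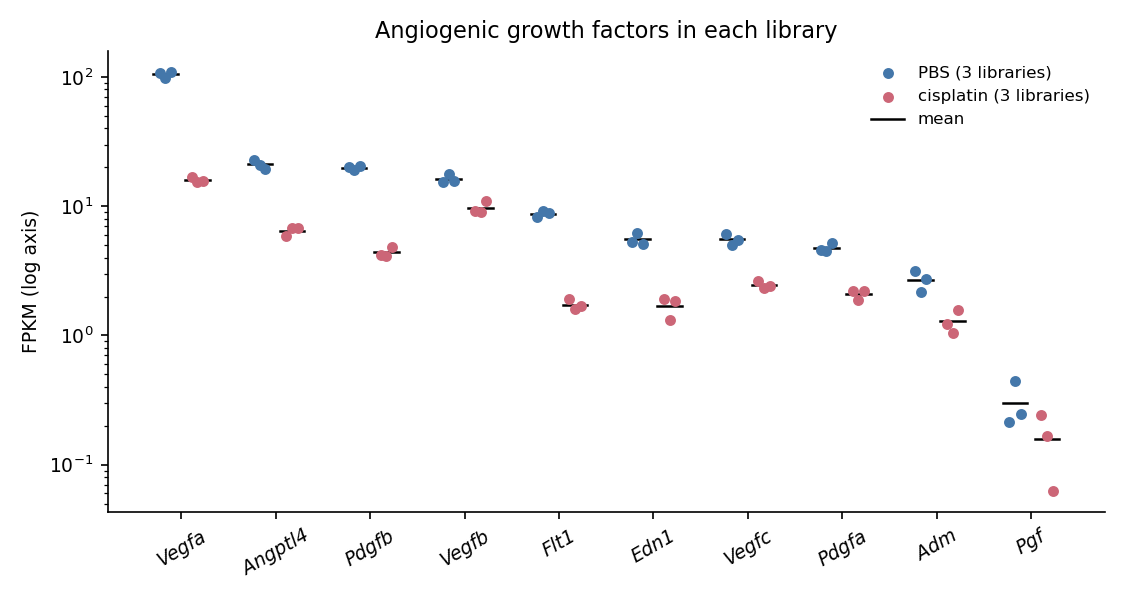
FPKM (log axis) of the 10 angiogenic growth factor genes in each of the 3 PBS and 3 cisplatin libraries, with the mean of each group as a bar. The 2 groups lie apart in every gene but Pgf, and Vegfa is the highest gene in both.

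Vegfa (ENSMUSG00000023951, GRCm38 chromosome 17, 46016993 to 46032369) encodes the main vessel growth factor and had the highest level of the members. Its FPKM was 108, 98.2 and 110 in PBS replicates 1 to 3, and 16.8, 15.4 and 15.7 in cisplatin replicates 1 to 3. The groups were far apart, with a mean of 105 ± 6.23 FPKM against 15.97 ± 0.774 FPKM. The mean was 6.59 times higher with PBS (log2 fold change -2.65, SE 0.056, limma adjusted p = 1.05e-07). Only 145 of the 13441 tested genes had a lower log2 fold change. Gene-level values sum the 13 transcripts that GENCODE M21 annotates for Vegfa, so its isoforms were not separated.

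Vegfb (ENSMUSG00000024962, chromosome 19, 6982473 to 6987651), a growth factor linked to fatty acid handling more than to vessel growth, changed far less. The FPKM was 15.3, 17.6 and 15.5 with PBS and 9.12, 9.07 and 10.9 with cisplatin. The groups did not overlap, and Vegfb was 1.66 times higher with PBS (log2 fold change -0.68, SE 0.085, adjusted p = 0.000350), too small a change for a call. Vegfc (ENSMUSG00000031520, chromosome 8, 54077606 to 54187096), the lymphatic growth factor, had 6.09, 5.03 and 5.48 FPKM with PBS and 2.64, 2.34 and 2.42 FPKM with cisplatin. PBS libraries were thus 2.24 times higher on average (log2 fold change -0.91, SE 0.079, adjusted p = 5.51e-05). On recovered reads with limma voom, which adds no pseudocount of this size, Vegfc was called (log2 fold change -1.08, adjusted p = 2.23e-06).

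Pgf (ENSMUSG00000004791, chromosome 12, 85166635 to 85177790), whose product binds VEGFR1 but not VEGFR2, was close to the limit of detection. Its FPKM was 0.214, 0.442 and 0.244 with PBS and 0.243, 0.168 and 0.0626 with cisplatin, which is between 3 and 20 reads per library. The groups overlapped, and in a fit without the filter the log2 fold change was -0.17 (95% interval -0.40 to 0.067, adjusted p = 0.279). After scaling by the Y-linked genes it was -0.35 (adjusted p = 0.0288), and the other alternatives gave adjusted p-values of 0.218 or more.

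Vegfa made up less of the VEGF ligands with cisplatin. Vegfa made up 80.3% to 83.1% of the summed FPKM of Vegfa, Vegfb, Vegfc, Vegfd and Pgf in the PBS libraries, and 52.7% to 56.9% in the cisplatin libraries. The share of Vegfb went from 11.7% to 14.4% with PBS to 30.8% to 36.7% with cisplatin, although its level was lower. Vegfd, the remaining ligand of the family, was below the filter, with a mean of 0.957 FPKM with PBS and 0.655 FPKM with cisplatin. Per length, Vegfa was 5.58 to 7.06 times as high as Vegfb in the PBS libraries and 1.44 to 1.85 times as high in the cisplatin libraries. The log2 ratio of the FPKM of the 2 genes, which does not depend on how libraries are scaled, differed by -1.98 (exact permutation test over libraries, two-sided, p = 0.1, adjusted p = 0.12 over 6 pairs). With 3 libraries against 3 the smallest possible p is 0.1.

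**Figure D2:**
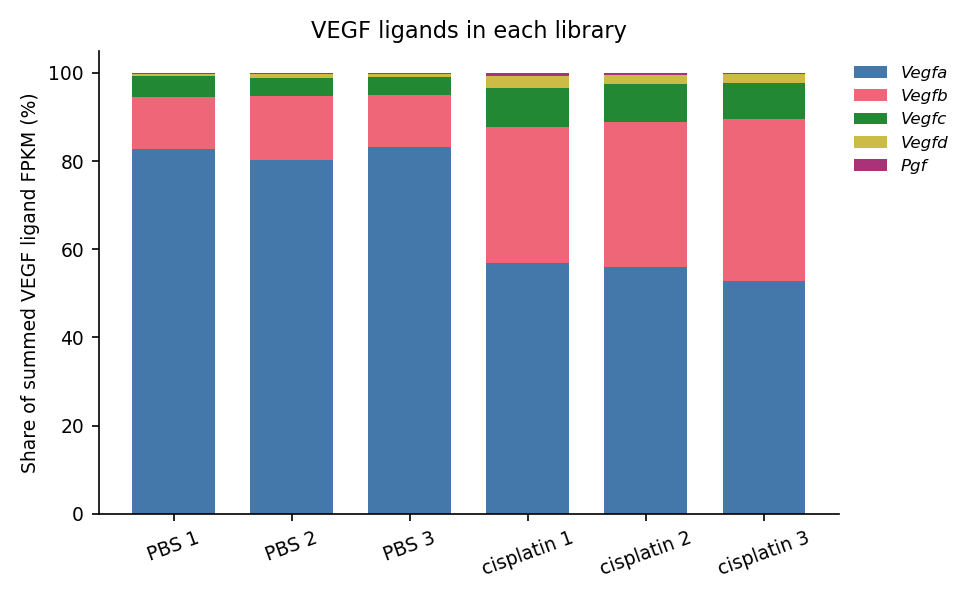
Share (%) of each ligand in the summed FPKM of the 5 VEGF family ligands, 1 bar per library. The Vegfa part takes 80.3% to 83.1% of the PBS bars and 52.7% to 56.9% of the cisplatin bars, and the Vegfb part is larger in all 3 cisplatin bars.

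Flt1 (ENSMUSG00000029648, chromosome 5, 147561604 to 147726011) encodes VEGFR1, the VEGF receptor that monocytes and macrophages carry, and also a soluble form that traps VEGF-A. Its FPKM was 8.20, 9.12 and 8.85 with PBS and 1.92, 1.60 and 1.68 with cisplatin. Flt1 was 5.04 times higher with PBS (log2 fold change -1.83, SE 0.071, adjusted p = 1.09e-06). With a gene length of 13504 bases, between 355 and 1959 reads lay behind each value, and the membrane and soluble forms were not separated. The level of Vegfa was 10.8 to 13.2 times that of Flt1 with PBS and 8.80 to 9.61 times with cisplatin, a log2 ratio that differed by -0.38 (exact permutation test, p = 0.1, adjusted p = 0.12 over 6 pairs).

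Angptl4 (ENSMUSG00000002289, chromosome 17, 33773750 to 33781575) had 22.7, 20.8 and 19.5 FPKM with PBS and 5.83, 6.73 and 6.80 FPKM with cisplatin. All 3 PBS libraries were about equally high, and the fall was 3.26-fold in the means (log2 fold change -1.56, SE 0.076, adjusted p = 3.15e-06). Angptl4 fell by less than Vegfa. The log2 ratio of Angptl4 to Vegfa was higher with cisplatin by 1.02, without overlap between the groups (exact permutation test, p = 0.1, adjusted p = 0.12 over 6 pairs).

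The platelet-derived growth factors moved unequally. Pdgfb (ENSMUSG00000000489, chromosome 15, 79995874 to 80014977), which vessels use to attract pericytes, had 19.9, 19.2 and 20.5 FPKM with PBS and 4.22, 4.08 and 4.85 FPKM with cisplatin. It fell 4.53-fold in the means (log2 fold change -1.96, SE 0.065, adjusted p = 5.65e-07). Pdgfa (ENSMUSG00000025856, chromosome 5, 138976014 to 138997370), the chain that acts mainly on PDGF receptor alpha, had 4.57, 4.53 and 5.23 FPKM with PBS and 2.22, 1.87 and 2.19 FPKM with cisplatin. On this scale the change of Pdgfa missed the threshold (log2 fold change -0.90, SE 0.081, adjusted p = 6.80e-05), and it passed on recovered reads with voom (-1.09, adjusted p = 9.55e-07). The level of Pdgfa was 0.229 to 0.256 of that of Pdgfb with PBS and 0.453 to 0.526 with cisplatin (difference in log2 ratio 0.99, exact permutation test, p = 0.1, adjusted p = 0.12 over 6 pairs).

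The genes of the vessel tone peptides were both low. Edn1 (ENSMUSG00000021367, chromosome 13, 42301476 to 42307990) encodes the vasoconstrictor endothelin 1 and had 5.31, 6.24 and 5.13 FPKM with PBS and 1.92, 1.31 and 1.84 FPKM with cisplatin. The fall of Edn1 was 3.29-fold in the means (log2 fold change -1.29, SE 0.12, adjusted p = 6.35e-05). Its 95% interval, -1.56 to -1.01, reached close to the threshold, and it was not called when limma treat tested for more than a 2-fold change (adjusted p = 0.20). Adm (ENSMUSG00000030790, chromosome 7, 110627661 to 110629820) encodes the vasodilator adrenomedullin and had 3.14, 2.18 and 2.71 FPKM with PBS and 1.23, 1.05 and 1.57 FPKM with cisplatin. Between 28 and 90 reads lay behind each of these, and Adm had the widest error of the 9 (log2 fold change -0.68, SE 0.13, adjusted p = 0.00302). The level of Adm relative to Vegfa was higher with cisplatin (difference in log2 ratio 1.66, exact permutation test, p = 0.1, adjusted p = 0.12 over 6 pairs), while the log2 ratio of Pgf to Vegfb overlapped between the groups (difference -0.32, p = 0.9, adjusted p = 0.9).

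Adm, Pdgfa and Pdgfb each overlap an antisense gene in the table, Gm28863, 6330403L08Rik and Gm41361. These reached at most 1.31, 1.13 and 1.62 FPKM with PBS and were lower with cisplatin. Whether counting used strand is not given in the sources used here, so reads of these pairs cannot be told apart, which weighs most on Adm.

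In order of level, the PBS libraries had Vegfa first, then Angptl4 and Pdgfb, which overlapped, then Vegfb and Flt1. Below these, Edn1, Vegfc and Pdgfa overlapped in turn, and Adm and Pgf were last. With cisplatin the order was Vegfa, Vegfb, Angptl4, Pdgfb and Vegfc, each clear of the next. Pdgfa, clear of Vegfc, came next, then Flt1, Edn1 and Adm, each of which overlapped the gene before it, and Pgf was last. Vegfb thus moved from position 4 to position 2, and Flt1 from position 5 to position 7.

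The size of the changes depended on how low values were treated and how libraries were scaled. On recovered reads with voom, 7 of the 9 members were called lower, where 13.8% of all tested genes were. With a pseudocount of 0.1 in place of 1, 8 were (14.7% of all tested genes). Scaling the libraries by 4 Y-linked genes brought the median log2 fold change over all tested genes to -0.83, with 9 of 9 members called lower (38.5% of all tested genes), from -3.61 for Vegfa to -1.32 for Adm. Quantile normalisation shifted that median to 0.10 and left 5 called lower (9.6% of all tested genes). No member changed direction under any scaling. The Y-linked scaling lowers log2 fold changes throughout, so by its construction genes with small positive values take the opposite sign under it. Before it, the 4 Y-linked genes themselves were higher with cisplatin (log2 fold changes from 0.55 for Uty to 1.15 for Ddx3y). After it they still differed from one another, from -0.25 for Eif2s3y to 0.23 for Ddx3y.

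**Figure D3:**
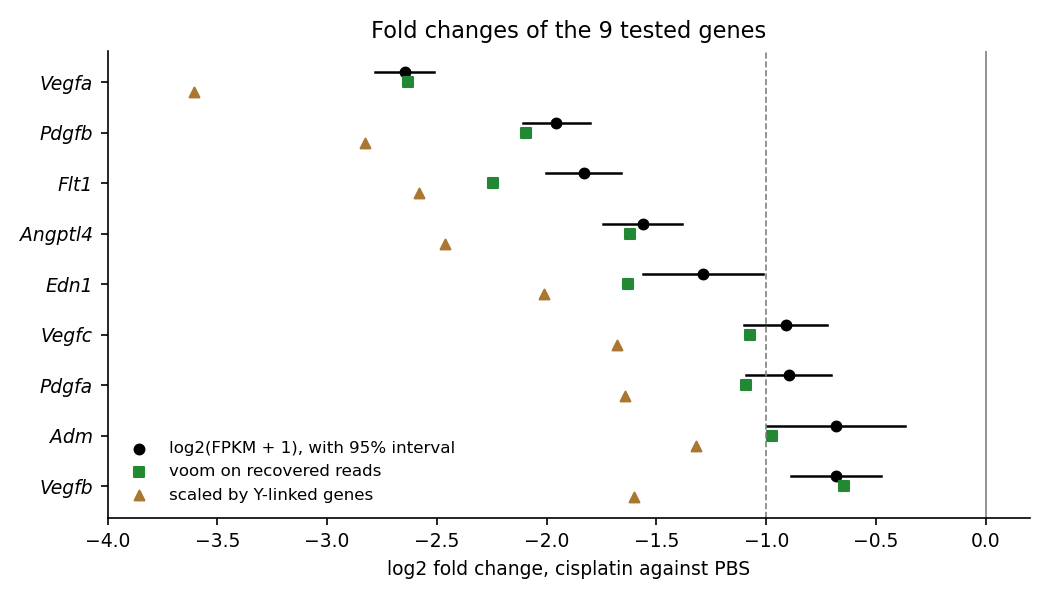
Log2 fold change (cisplatin against PBS) of the 9 tested members on log2(FPKM + 1) with its 95% interval, by limma voom on recovered reads, and after scaling by the Y-linked genes. The dashed line marks a log2 fold change of -1; all points lie below 0, and Vegfa is lowest in each of the 3.

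The receptors and processing genes of these ligands did not move as one. Of 23 genes listed, 13 were tested, and 2 rose and 4 fell past both thresholds, where 4.67% and 11.3% of all tested genes did. The median log2 fold change of the 13 was -0.31. Flt4, the VEGF-C receptor gene, fell from 9.53 ± 0.627 to 1.60 ± 0.119 FPKM (log2 fold change -2.02, adjusted p = 6.67e-07), beside the lower Vegfc. Kdr, the main receptor gene for VEGF-A in vessels, was below the filter, with 0.521 to 0.640 FPKM with PBS and 0.945 to 0.998 FPKM with cisplatin. The VEGF co-receptor genes Nrp1 (log2 fold change 0.69, adjusted p = 8.54e-05) and Nrp2 (0.19, adjusted p = 0.00275) were higher but short of the fold change, and both had the opposite sign after scaling by the Y-linked genes (-0.15 and -0.76).

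The PDGF receptor genes Pdgfra and Pdgfrb, which are not in the rule for named genes, were below the filter, with means of 1.04 and 0.644 FPKM with PBS and 0.203 and 1.004 FPKM with cisplatin.

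For endothelin, the ligand and a receptor moved in opposite directions. Ednrb, which encodes endothelin receptor type B, had 0.570 to 0.798 FPKM with PBS and 11.8 to 13.4 FPKM with cisplatin. It rose 18.2-fold in the means (log2 fold change 3.001, SE 0.078, adjusted p = 2.18e-07). Ednra, the type A receptor gene, did not exceed 0.055 FPKM in any library. Mme, which encodes neprilysin, a protease that degrades endothelin and other peptides, fell from 3.42 ± 0.431 to 0.359 ± 0.030 FPKM (log2 fold change -1.70, adjusted p = 7.52e-06). Ece1, the gene for the enzyme that matures endothelin, was chosen after its values were seen and had a log2 fold change of -0.86 (adjusted p = 2.47e-05).

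Adrenomedullin signals through the receptor encoded by Calcrl, joined to either of 2 partners encoded by Ramp2 and Ramp3. Ramp2 was at 1.87 to 2.38 FPKM with PBS and at 0.369 to 0.677 FPKM with cisplatin, and it fell (log2 fold change -1.07, SE 0.12, adjusted p = 0.000207). Ramp3 was at 0.326 to 0.368 FPKM with PBS and at 2.19 to 3.001 FPKM with cisplatin, and it rose (log2 fold change 1.43, SE 0.11, adjusted p = 2.97e-05). The 2 partners thus changed places in level, with no overlap between them in either group. Few reads lay behind the lower values, with 9, 7 and 7 for Ramp3 with PBS and 38, 20 and 23 for Ramp2 with cisplatin. Calcrl itself, chosen after its values were seen, had a log2 fold change of 0.82 (adjusted p = 6.82e-05), which was -0.0017 after scaling by the Y-linked genes. Ackr3, which encodes a scavenger receptor for adrenomedullin and chemokines, fell (log2 fold change -1.10, adjusted p = 5.63e-05), to 30, 19 and 21 reads with cisplatin.

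**Figure D4:**
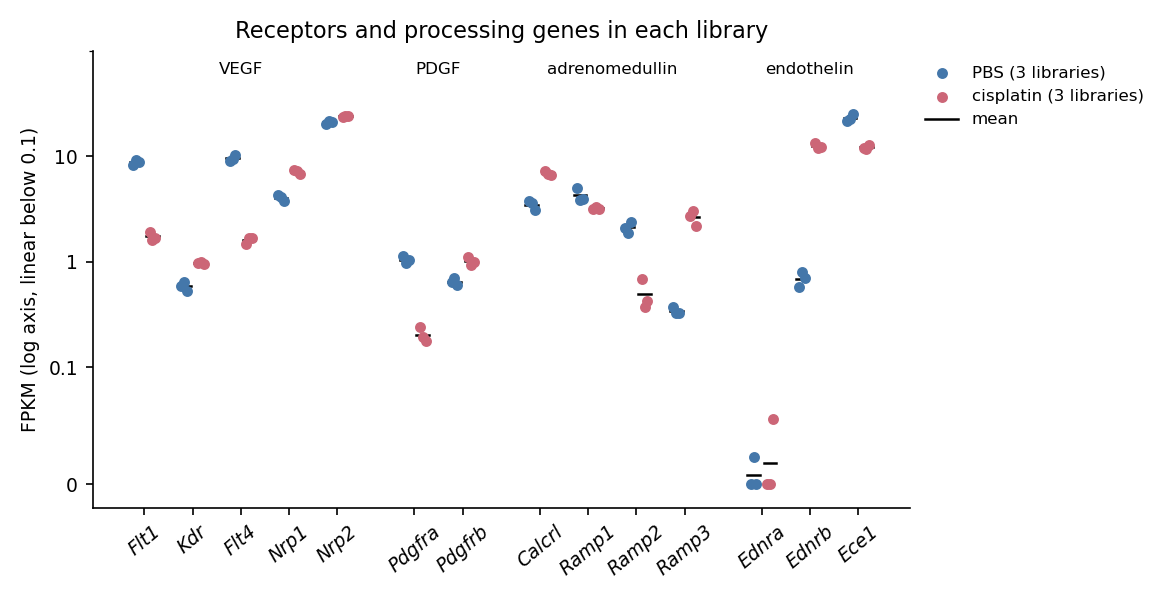
FPKM of receptor and processing genes for the VEGF, PDGF, adrenomedullin and endothelin ligands in each of the 3 PBS and 3 cisplatin libraries (log axis, linear below 0.1), with group means as bars. Flt1, Flt4 and Ramp2 are lower and Ednrb and Ramp3 higher in all 3 cisplatin libraries.

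Of 28 other angiogenic ligands, receptors and antagonists listed, 10 were tested, with 1 called higher and 2 lower (4.67% and 11.3% of all tested genes) and a median log2 fold change of 0.054. After scaling by the Y-linked genes that median was -0.79, and 3 of the 10 had the opposite sign. Pdgfc, another PDGF ligand gene, fell with the members (3.57 ± 0.400 to 0.720 ± 0.151 FPKM, log2 fold change -1.41, adjusted p = 2.68e-05). Thbs1, which encodes thrombospondin 1, an inhibitor of vessel growth, rose from 136 ± 4.43 to 930 ± 4.95 FPKM (log2 fold change 2.76, adjusted p = 3.02e-08). Plxdc1, an endothelial surface gene of tumours, fell (log2 fold change -2.11, adjusted p = 8.59e-07).

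Hypoxia-linked genes were lower in the same libraries. Of 26 tested genes of a list of HIF subunits, regulators and other HIF targets, 21 fell and none rose (11.3% and 4.67% of all tested genes), with a median log2 fold change of -1.67. By limma 1 of the 26, Egln2 (log2 fold change 0.37, or -0.58 after scaling by the Y-linked genes, chosen after its values were seen), was higher at an unadjusted p under 0.05 (34.3% of all tested genes), and voom called 0 higher (9.13%). Ndrg1 (-4.10, adjusted p = 1.82e-08) and Egln3, the gene of an oxygen-sensing prolyl hydroxylase (-4.06, adjusted p = 6.24e-08), fell the furthest. After them came the mitophagy gene Bnip3 (-2.98), Ankrd37 (-2.96), the oxidoreductase gene Ero1l (-2.71) and the kinase gene Pdk1 (-2.66). Hif1a RNA itself differed little (81.1 ± 4.24 FPKM against 65.1 ± 5.25 FPKM, log2 fold change -0.31, adjusted p = 0.00467), while Epas1, which encodes HIF-2 alpha, fell (-1.41, adjusted p = 5.26e-05). HIF protein was not measured.

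Angptl4 is also a target of the lipid-sensing PPAR receptors and of the glucocorticoid receptor. Of 11 tested genes of that list, 1 rose and 3 fell (4.67% and 11.3% of all tested genes), with a median log2 fold change of -0.51. Hilpda (-2.17, adjusted p = 7.14e-08), which is also a HIF target, Pdk4 (-1.62, adjusted p = 4.57e-06) and the glucocorticoid target Fkbp5 (-1.30, adjusted p = 5.70e-07) fell with Angptl4. The lipid uptake receptor gene Cd36 rose (2.16, adjusted p = 1.04e-06). Of the receptors, Ppard had a log2 fold change of -0.51 (adjusted p = 0.000142) and Pparg of 0.14 (adjusted p = 0.408), or -0.38 after scaling by the Y-linked genes.

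Markers of the cells in the co-culture differed between the groups as well. Of 18 listed ID8 and mesothelial markers, 12 were tested and 10 fell (11.3% of all tested genes), with a median log2 fold change of -2.19. Their summed level was 1387 to 1487 FPKM with PBS and 252 to 273 FPKM with cisplatin. The 3 highest over all 6 libraries were Krt19 (588 ± 28.8 against 51.1 ± 3.80 FPKM), Sparc (231 ± 6.21 against 49.7 ± 2.30 FPKM) and Krt8 (151 ± 8.93 against 24.2 ± 1.57 FPKM). The other 2 tested markers were not called. These were Msln (99.9 ± 1.29 against 61.0 ± 2.10 FPKM), the highest of the list with cisplatin, and Cdh1 (log2 fold change 0.60, adjusted p = 0.00238, or -0.20 after scaling by the Y-linked genes), both chosen after their values were seen. Krt7, Cldn7, Igfbp5, Epcam, Lrrn4 and Muc16 were below the filter, and none of the 18 was at 0 in all libraries. ID8 cells derive from a female mouse, and Xist, the RNA that coats an inactivated X, was at 42.7 ± 5.35 FPKM with PBS and 7.79 ± 0.194 FPKM with cisplatin. Of a list of 4 Y-linked genes and Xist, all 5 were tested. Ddx3y was called higher (log2 fold change 1.15) and Xist lower (-2.31), where 4.67% and 11.3% of all tested genes were. Kdm5d (0.73), Eif2s3y (0.68) and Uty (0.55) were higher at an adjusted p under 0.05 but short of the fold change. All 14 macrophage markers were tested, and 6 rose and none fell (4.67% and 11.3% of all tested genes), with a median of 0.92 and a summed level of 1729 to 1739 FPKM with PBS and 4378 to 4545 FPKM with cisplatin. At an unadjusted p under 0.05 in limma all 14 were higher and 0 lower (34.3% and 36.4% of all tested genes), and voom called 9 higher and 0 lower (9.13% and 13.8%). Lyz2 (1161 ± 10.8 against 3459 ± 80.4 FPKM) led them, followed by Cd68 (log2 fold change 0.20) and Cd14 (0.69), and 8 of the 14 had the opposite sign after scaling by the Y-linked genes. The labelled cell type was thus present in every library, together with keratin RNA.

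Markers of other cell types were also checked. Of 10 megakaryocyte and platelet markers, 6 were tested, and 2 rose and none fell, beside 4.67% and 11.3% of all tested genes (Ppbp, 6.70 ± 1.62 against 46.9 ± 3.36 FPKM, and Itga2b, 4.94 ± 0.135 against 12.1 ± 0.829 FPKM). Their summed level was 15.4 to 18.1 FPKM with PBS and 64.9 to 70.1 FPKM with cisplatin, with Ppbp the highest gene in both groups, and Gp1bb was at 0 in all libraries. Tubb1, among the 3 highest, was not called (log2 fold change 0.33, adjusted p = 0.0263), and it was 1 of 2 markers of the list with the opposite sign after scaling by the Y-linked genes (-0.30). At an unadjusted p under 0.05 in limma 5 of the 6 were higher and 0 lower (34.3% and 36.4% of all tested genes), and voom called 4 higher and 0 lower (9.13% and 13.8%). Of 14 endothelial markers, 5 were tested, 1 fell and none rose (11.3% and 4.67% of all tested genes), with a summed level of 24.4 to 25.1 FPKM against 26.9 to 28.2 FPKM. Voom called 1 higher and 2 lower (9.13% and 13.8% of all tested genes), and at an unadjusted p under 0.05 in limma 3 were higher and 2 lower (34.3% and 36.4%). After scaling by the Y-linked genes 2 of these 3 had the opposite sign, and the median of the list went from 0.64 to -0.24. Pecam1 (log2 fold change 0.66), Esam (-1.57) and Vwf (0.85) were the highest over all 6 libraries, Cdh5 did not exceed 0.377 FPKM, and Cldn5 and Sox17 were at 0 in all libraries. Of 12 fibroblast and mural cell markers, 3 were tested, and 1 rose (Acta2, log2 fold change 1.75) and 1 fell (Dcn, -1.68), beside 4.67% and 11.3% of all tested genes. Col1a1 was not called (-0.47), and the summed level of the 12 was 63.2 to 67.0 FPKM against 42.1 to 44.4 FPKM.

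**Figure D5:**
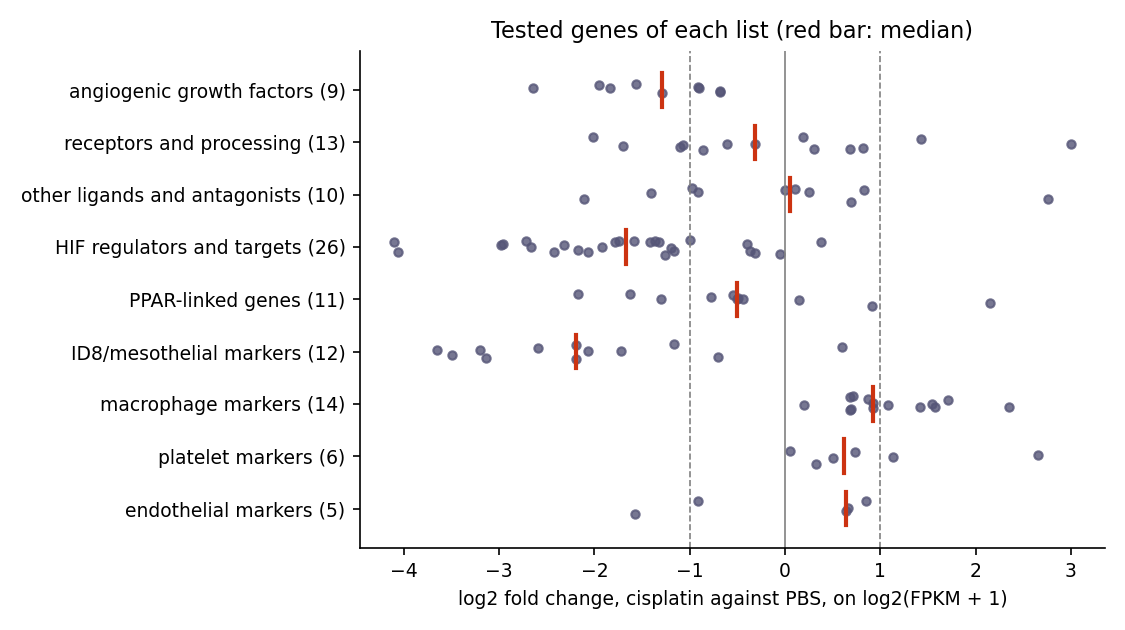
Log2 fold change (cisplatin against PBS, on log2(FPKM + 1)) of each tested gene of the angiogenic growth factors, 4 related gene lists and 4 marker lists, with the number tested in brackets and the median as a red bar. Dashed lines mark log2 fold changes of -1 and 1; the medians are -1.29 for the growth factors, -1.67 for HIF regulators and targets, -2.19 for ID8 and mesothelial markers and 0.92 for macrophage markers.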

How the data were processed

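Poly-T selected RNA from co-cultures was sequenced in 6 libraries, 3 per group, and samples were grouped by the treatment in the labels. The authors deposited 1 table of FPKM per gene and library, with gene lengths. The submitters' processing notes name fastp, HISAT2 2.0.5, featureCounts 1.5.0-p3 and build mm10, whereas the study's methods name LifeScope for alignment and counting. GENCODE M21 (GRCm38) holds 54409 of the identifiers, 98.3% at identical coordinates, and coordinates are given as the deposited table states them. Multiplied by gene length, FPKM values were whole multiples of a fixed step, and reads were recovered from them. Below 200 reads, 100% of values were whole numbers of reads within 0.05. Depth of 15776238 to 17924686 reads leaves counting error small except in genes with few reads. Among the members these are Pgf and Adm, and among the receptor genes Ramp2, Ramp3 and Ackr3.

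Here log2(FPKM + 1) was tested with limma 3.58.1 (lmFit, eBayes with trend, R 4.3.3), as the report states, with p-values adjusted over all 13441 tested genes. The procedure was tested on simulated data. Ratios within a library were compared by exact two-sided permutation tests. Same-numbered libraries did not deviate together (correlations -0.10, -0.086 and -0.024), so the replicate block was only an alternative. Other alternatives were the pseudocount, filter, scaling, variance prior, voom, call rule and leaving out each library. The genes named were all members, up to 6 called genes with the largest change in each related list, 9 genes named whatever their values (such as Kdr and Hif1a), and the 3 highest markers of each marker list. Members and lists were chosen with earlier results of these data known.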

Additional observations from a re-analysis of the deposited data

How the results depend on the processing

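Of 18 alternative settings, each of the 9 tested members kept its direction wherever it was tested. Edn1 alone lost its call, by limma treat, and Vegfb, Vegfc, Pdgfa and Adm gained one under some.

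Against 628 genes called higher and 1514 lower, scaling by the Y-linked genes gave 85 and 5181, the adjusted p alone 4424 and 4721, and limma treat 240 and 982. A pseudocount of 0.1 gave 973 higher and voom 1227, and the share of calls that were higher was 39.7% with voom, 39.3% with quantile normalisation, 48.4% by the adjusted p alone, 19.6% by treat and 1.61% after scaling by the Y-linked genes, in place of 29.3%. Members called lower, 5 as reported, were 8 with a pseudocount of 0.1, 9 after scaling by the Y-linked genes and 9 by the adjusted p alone. Of the receptor list, 2 were called higher and 4 lower. These became 1 and 1 with a filter at 5 FPKM, 1 and 7 after scaling by the Y-linked genes, and 6 and 7 by the adjusted p alone, and 2 were lower under quantile normalisation and 2 under treat. Of the other ligands, 1 was called higher and 2 lower. These became 3 and 4 with a pseudocount of 0.1, 3 and 4 with voom, 2 and 4 with TPM rescaling, and 5 and 4 by the adjusted p alone. In the same list 1 was lower with a filter at 5 FPKM, 2 were higher under quantile normalisation and 4 were lower after scaling by the Y-linked genes. For the HIF list, 1 was higher by the adjusted p alone. Of the PPAR list, 1 was called higher and 3 lower, against 2 higher with voom, 2 and 8 by the adjusted p alone, and 8 lower after scaling by the Y-linked genes. Some of these differences follow from the setting itself. The adjusted p alone is a lower bar, limma treat is a higher one, and the stricter filter leaves fewer genes. Scaling by the Y-linked genes lowers log2 fold changes throughout. For the other differences the cause was not tested.

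A fit with the replicate block called 625 genes higher, 1515 lower and 5 members lower. Leaving out each library in turn gave 622 to 671 higher and 1513 to 1531 lower genes, 5 members lower in every case, 20 to 21 HIF genes lower and 2 to 3 other ligands lower. The difference in the log2 ratio of Pgf to Vegfb, -0.32, reversed with FPKM + 1 (0.52) and without cisplatin replicate 3 (0.33), and ranged from -0.78 to 0.33 over the fits that left out a library. Adm and Pdgfa were below the filter at 5 FPKM. Among the members, Pgf and Adm had the fewest reads.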
